A study of Mus musculus with 14 samples.

Results

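The 9 genes described here are the 7 subunits of respiratory complex I that are encoded in mitochondrial DNA (mt-Nd1, mt-Nd2, mt-Nd3, mt-Nd4, mt-Nd4l, mt-Nd5 and mt-Nd6) and the nuclear pseudogenes Gm10925 and Gm28438. They were found by symbol among the 36118 genes of the deposited table, and all 9 were among the 16637 genes that passed the filter on low counts, Gm10925 through its KO libraries. mt-Nd3, Gm10925 and Gm28438 were chosen by their measured values, since they stood among the largest changes between KO-O2 and WT-O2 hippocampus. That contrast is therefore given as a description with no test. The other 6 genes complete the set of mitochondrially encoded complex I subunits.

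Hippocampal RNA was collected on postnatal day 15 from GSDMD-KO mice and WT littermates (C57/BL6 in the labels, and C57BL/6N for the KO line in the study's methods) that had been kept in room air (RA) or 85% O2 between postnatal days 1 and 14. Each of the 14 libraries came from 1 mouse, with 4 WT mice per exposure and 3 KO mice per exposure. The groups are written WT-RA and WT-O2 for WT mice, KO-RA and KO-O2 for KO mice. The KO mice lack functional gasdermin D, a pore-forming protein of inflammatory cell death, in all tissues through a CRISPR/Cas9 deletion in the fifth exon of Gsdmd, and the WT mice carry no engineered allele. The p-values given below measure the spread between mice of these groups.

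Libraries held between 27272270 and 28257496 estimated counts. Gsdmd had 41 to 63 counts in WT and 22 to 42 in KO libraries, and the ranges overlapped slightly. Scaled to library size, the highest KO library (KO-O2 replicate 3, 1.5 CPM) lay above the lowest WT library (WT-RA replicate 4, 1.47 CPM). For WT-O2 replicate 4 the title gave hyperoxia and the treatment field room air, and the title was used. WT and KO mice carry numbers from separate ranges, so genotype and any difference in litter or date of sampling between those ranges cannot be told apart. The WT and KO hippocampi also differed in markers of neighbouring tissue. All 8 markers of hippocampal pyramidal and granule neurons were called higher in KO-RA (by the rule given below), with summed levels of 669 to 933 CPM in WT-RA and 1350 to 1700 CPM in KO-RA. Of 8 markers of striatal neurons, 7 were called lower (554 to 692 CPM in WT-RA, 149 to 241 CPM in KO-RA), as were 4 of 8 thalamic and habenular markers (174 to 923 CPM and 211 to 221 CPM) and 6 of 6 oligodendrocyte markers (7680 to 19200 CPM and 3300 to 5320 CPM). Of 5 astrocyte markers, 2 were called higher (1190 to 1410 CPM and 1620 to 1740 CPM), while Aldh1l1 of the same list was at -0.21 on the log2 scale (edgeR q = 0.0429) and fell short of the fold change required. For choroid plexus, red blood cells and microglia, 0 markers were called by edgeR or DESeq2 in KO-RA vs WT-RA and 0 had an unadjusted p below 0.05, with choroid plexus at 930.0 to 2430 CPM in WT-RA and 37.6 to 3290 CPM in KO-RA. No marker of these lists was at 0 in all 14 libraries, and single groups were not examined for this. The part of these differences in the results on genotype was not tested. In whole tissue, fewer cells of a type and less RNA per cell cannot be told apart.

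Complex I, or NADH dehydrogenase, passes electrons from NADH to ubiquinone and pumps protons across the inner mitochondrial membrane. Its membrane arm contains all of the subunits made inside the mitochondrion, while its remaining subunits are encoded in the nucleus. mt-Nd2, mt-Nd4 and mt-Nd5 are the antiporter-like proton-pumping subunits, mt-Nd1 lies at the ubiquinone site, and mt-Nd3, mt-Nd4l and mt-Nd6 are small subunits that join the pumping subunits to the rest of the enzyme. Mitochondrial DNA is transcribed into long polycistronic RNAs that are cut into single messages. Over evolution, pieces of mitochondrial DNA have also been inserted into chromosomes, where they remain as nuclear copies of mitochondrial genes. Gm28438 and Gm10925 are annotated as unprocessed pseudogenes of this kind.

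In the GRCm38 annotation, 7 such copies lie side by side on the minus strand of chromosome 1 between positions 24611535 and 24616197. Along that strand they follow the order of their counterparts on mitochondrial DNA, from mt-Co1 to mt-Nd4. Gm28438 (ENSMUSG00000101939, chr1:24612775-24613119) is the copy of mt-Nd3 (ENSMUSG00000064360, chrM:9459-9806, plus strand). Gm10925 (ENSMUSG00000100862, chr1:24613974-24614651) is the copy of mt-Atp6 (ENSMUSG00000064357, chrM:7927-8607, plus strand), which encodes a subunit of ATP synthase and not of complex I. The other complex I genes on the plus strand are mt-Nd1 (ENSMUSG00000064341, chrM:2751-3707), mt-Nd2 (ENSMUSG00000064345, chrM:3914-4951), mt-Nd4l (ENSMUSG00000065947, chrM:9877-10173), mt-Nd4 (ENSMUSG00000064363, chrM:10167-11544) and mt-Nd5 (ENSMUSG00000064367, chrM:11742-13565). mt-Nd6 (ENSMUSG00000064368, chrM:13552-14070) lies on the minus strand, and the ends of mt-Nd4l and mt-Nd4 overlap, as do those of mt-Nd5 and mt-Nd6. Whether the counting used strand is not given in the sources used here. Positions and transcripts are from GENCODE M21 on GRCm38, whereas the counts were made on GRCm39, so both were matched by name.

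The sequences are shown because most reads of a copy and its counterpart are the same, and the program that made the counts divides such reads between them by estimate. Over the 345 bases of Gm28438, 1 base differed from mt-Nd3, the substitution T3C, counted from 1 at the start of the mt-Nd3 transcript and with the mt-Nd3 base first. That base lies at position 9461 of mitochondrial DNA. The first 90 bases of both transcripts are shown, with the differing base in capitals.
mt-Nd3: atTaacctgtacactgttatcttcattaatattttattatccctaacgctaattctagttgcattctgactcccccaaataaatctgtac
Gm28438: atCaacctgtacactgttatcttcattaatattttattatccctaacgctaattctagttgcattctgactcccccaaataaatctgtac
At the other end, mt-Nd3 continued for 3 bases beyond the copy (348 against 345 bases). Of the 315 words of 31 bases in Gm28438, 312 also occurred in mt-Nd3, 3 occurred in the copy alone, and 6 occurred in mt-Nd3 alone. Words of 31 bases are the default of the program that made the counts, and the length in fact used is not given in the sources used here.

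Gm10925 held no base that differed from mt-Atp6. Its 678 bases are identical to the first 678 of the 681 bases of mt-Atp6, and all of its 648 words of 31 bases also occurred in mt-Atp6. The last 30 bases of each transcript are shown because the 3 bases by which mt-Atp6 is longer were the only difference between the transcripts as annotated.
mt-Atp6: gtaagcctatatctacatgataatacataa
Gm10925: ctagtaagcctatatctacatgataataca

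mt-Nd3 and Gm28438 were opposite between genotypes. The base that these mice carry at the differing position was not read here, and its part in the division of counts between the 2 genes was not tested. Levels are given in CPM, the counts scaled to library size after TMM normalization. mt-Nd3 was at 887, 721, 573 and 922 CPM in the 4 WT-RA libraries and at 1043, 952.5, 800.3 and 744 CPM in the 4 WT-O2 libraries. In KO-RA it was at 142, 100.5 and 163 CPM, and in KO-O2 at 143.5, 126 and 162 CPM. Every KO library was thus below every WT library, and the lowest WT library held more than 3 times the level of the highest KO library. Gm28438 was at 61.6, 150.0, 192 and 128 CPM in WT-RA and at 154, 26.7, 20.9 and 2.17 CPM in WT-O2. It was at 924, 703 and 831 CPM in KO-RA and at 853, 766 and 869 CPM in KO-O2, above every WT library. The WT-O2 libraries of Gm28438 were the most scattered of the 4 groups relative to their mean, with replicate 1 far above the other 3.

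**Figure D1:**
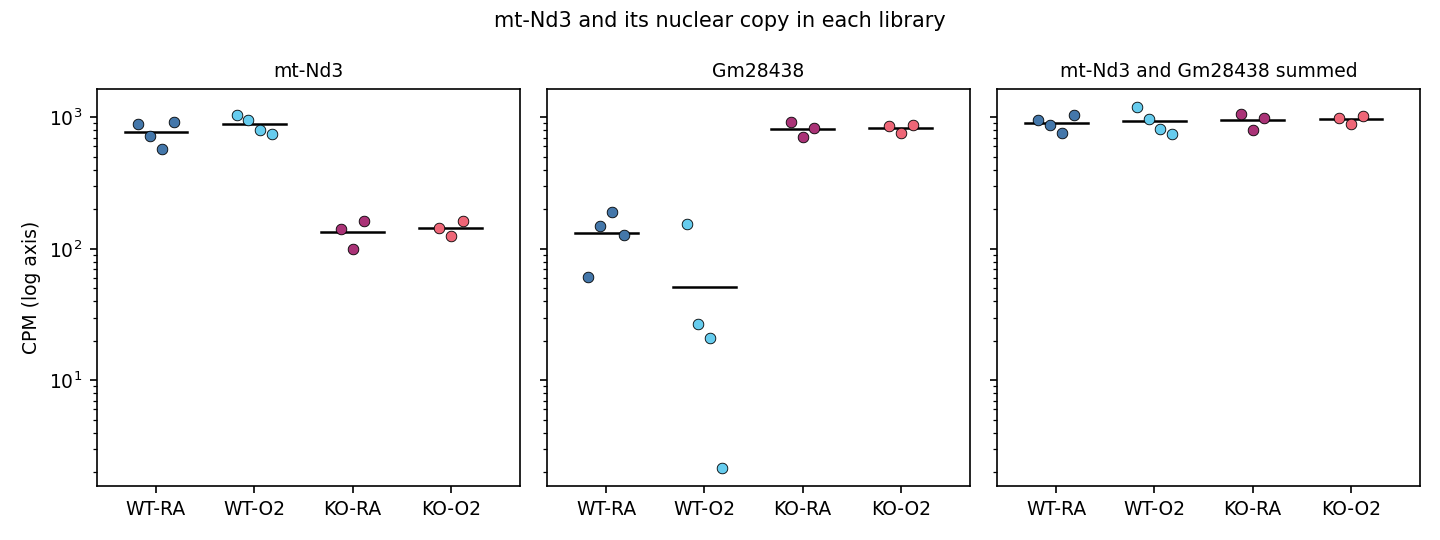
Levels of mt-Nd3, Gm28438 and their sum in each library, in CPM on a logarithmic axis, by group. Points are libraries and bars are arithmetic means. mt-Nd3 was lower and Gm28438 higher in all 6 KO libraries, while the sum was between 746.5 and 1197 CPM in all 14.

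The room air libraries took no part in the contrast that chose these genes, so the difference of genotype was tested there with the quasi-likelihood test of edgeR, and q is its p adjusted by Benjamini-Hochberg over 16637 genes. Calls used the study's minimum fold change together with p below 0.05 and q below 0.1. Gm10925 is left out of the count of calls because it passed the filter only through the KO libraries, where it is high. Of the other 8 genes, 2 were called in KO-RA vs WT-RA, beside 10.4% of all genes tested. Gm28438 was called higher (3.75% of all genes were) and mt-Nd3 was called lower (6.7% of all genes were). mt-Nd3 averaged 776 CPM in WT-RA (SD 161, n = 4) and 135 CPM in KO-RA (SD 31.9, n = 3), a log2 fold change of -2.52 (SE 0.195, edgeR q = 1.8e-05). Gm28438 averaged 133 CPM in WT-RA (SD 54.3, n = 4) and 819 CPM in KO-RA (SD 111, n = 3), a log2 fold change of 2.63 (SE 0.759, edgeR q = 0.0414). Without KO-RA replicate 1 the log2 fold change of Gm28438 was 2.53 and its edgeR q was 0.108, so that it was not called. mt-Nd3 was called in KO-RA vs WT-RA under all 24 alternatives run, with log2 fold changes from -2.66 to -2.35.

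The sum of the pair did not show the change of its parts. mt-Nd3 and Gm28438 together came to 948, 871, 764 and 1049 CPM in WT-RA and to 1066, 804 and 994 CPM in KO-RA, and these ranges overlapped. Fitted as 1 row in the same model, the sum had a log2 fold change of 0.07 (SE 0.148, 95% interval -0.24 to 0.39, edgeR q = 0.835). Under hyperoxia the sum was at 1197, 979, 821 and 746.5 CPM in WT-O2 and at 996, 892 and 1031 CPM in KO-O2. The group means of the sum were lowest in WT-RA, at 908 CPM (SD 120, n = 4), and highest in KO-O2, at 973 CPM (SD 72.4, n = 3).

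The share of the pair that was given to Gm28438 separated the genotypes. In WT-RA the copy received 6.49%, 17.2%, 25.1% and 12.2% of the counts of the pair, and in WT-O2 12.9%, 2.73%, 2.55% and 0.29%. In KO-RA it received 86.7%, 87.5% and 83.6%, and in KO-O2 85.6%, 85.85% and 84.3%. The 6 KO shares thus lay between 83.6% and 87.5%, while the WT shares spread from 0.29% to 25.1%. KO-RA exceeded WT-RA by 70.7 percentage points (exact permutation test, two-sided, p = 0.0571, the smallest that 4 against 3 libraries allow; 0.129 after Benjamini-Hochberg adjustment over 3 comparisons). The mean share was 4.61% in WT-O2 and 15.2% in WT-RA, with overlap of the groups. The WT-O2 libraries took part in the contrast that chose both genes, so this is a description.

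The deposited counts of the pair were fractional, but their sum was not. Each library's mt-Nd3 and Gm28438 counts added up to within 0.1 of a whole number in 14 of 14 libraries, whereas mt-Nd3 alone did so in 3 and Gm28438 alone in 2. In WT-RA replicate 1, for example, 24385.5 counts of mt-Nd3 and 1692.5 counts of Gm28438 summed to 26078. Larger pairs could not be examined in this way because the table holds about 6 digits per value.

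**Figure D2:**
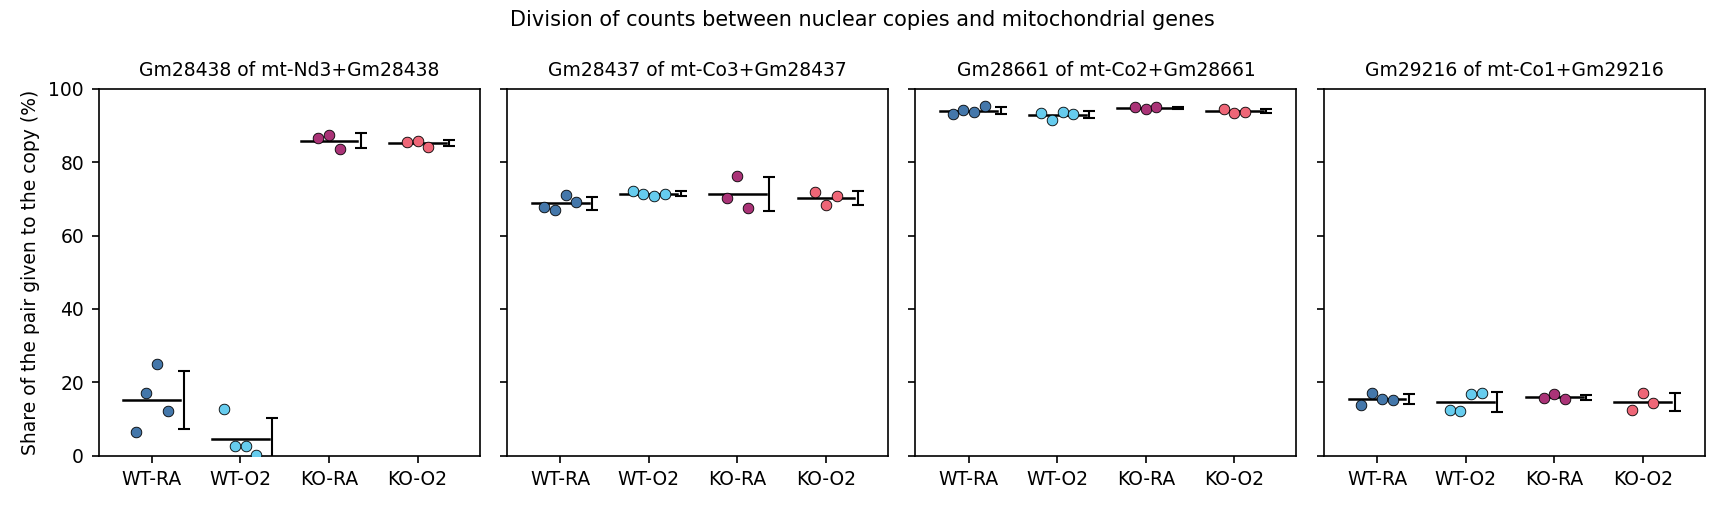
Share of the counts of a pair that was given to the nuclear copy, in percent, in each library by group. Points are libraries, horizontal bars means and vertical bars the SD (cut at 0). The share of Gm28438 was 83.6% to 87.5% in KO and 0.29% to 25.1% in WT, whereas the shares of Gm28437, Gm28661 and Gm29216 overlapped between the genotypes.

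The shares of Gm28437, Gm28661 and Gm29216 overlapped between the genotypes. Gm28437 received 66.9% to 71.1% of the counts of its pair with mt-Co3 in WT-RA and 67.6% to 76.4% in KO-RA. Gm28661 received 93.1% to 95.3% and 94.5% to 95.1% of its pair with mt-Co2, and Gm29216 received 13.8% to 17.0% and 15.5% to 16.8% of its pair with mt-Co1. Gm28437 and Gm28661 are identical to their counterparts over their whole length, and Gm29216 differed at 1 base of the 483 aligned (A1066T, counted on mt-Co1). Gm10222 and Gm28439, the copies of mt-Nd4l and mt-Nd4, were listed at 0 in all 14 libraries, so the values of those complex I genes were not divided with a copy.

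Gm10925 was given more counts in KO than in WT libraries. All of its words occur in mt-Atp6, so its counts are an estimated share of reads that fit both and do not show that the copy itself was transcribed. It had 79.3, 32.1, 1.11 and 1.95 estimated counts in WT-RA and 0.114, 5.75, 5.43 and 8.59 in WT-O2. In KO-RA it had 3396, 313 and 229.6 counts, and in KO-O2 1356, 486 and 836. All KO libraries were above all WT libraries, and KO-RA replicate 1 held over 10 times the counts of each of the other KO-RA libraries. In KO-RA vs WT-RA the log2 fold change was 5.56 (SE 0.991), which is given as a description because the filter was passed through the KO libraries. It was 3.22 without KO-RA replicate 1 and 6.86 without WT-RA replicate 1, and Gm10925 could not be tested where 10 counts were required in every library.

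Against its counterpart, Gm10925 was a small fraction. It took 0.0582% to 0.831% of the counts of its pair with mt-Atp6 in KO-RA and 0.000412% to 0.0225% in WT-RA. mt-Atp6 itself was at 9377 to 12790 CPM in WT-RA and 12510 to 15050 CPM in KO-RA, ranges that overlapped. The sum of mt-Atp6 and Gm10925 had a log2 fold change of 0.36 (SE 0.158, 95% interval 0.02 to 0.70, edgeR q = 0.18) and was not called. Without WT-RA replicate 1 this sum was called, at 0.46 (q = 0.0967).

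**Figure D3:**
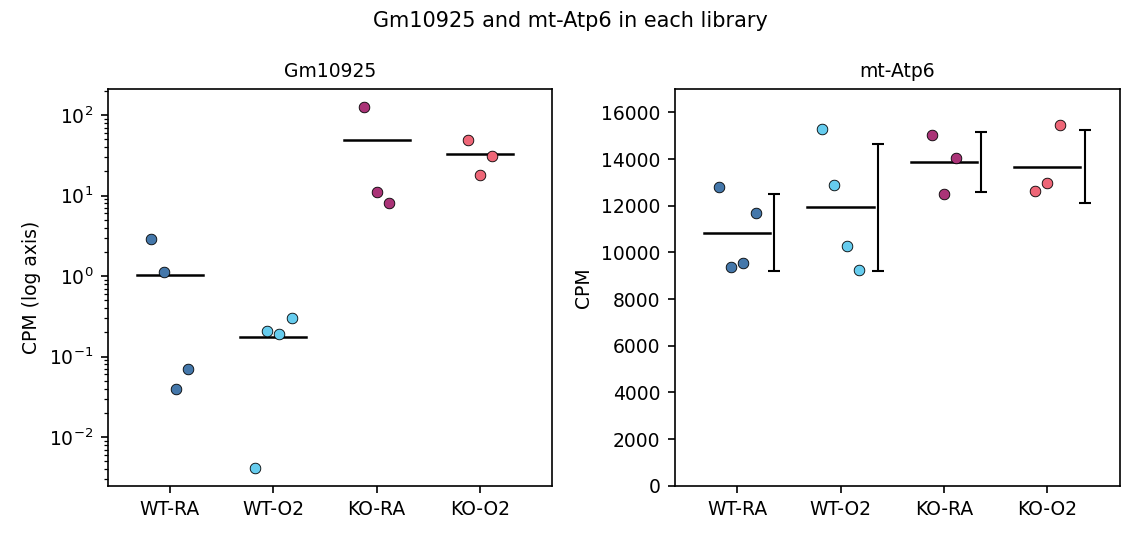
Gm10925 (logarithmic axis) and mt-Atp6 (linear axis) in each library, in CPM by group. Points are libraries and horizontal bars means, and vertical bars for mt-Atp6 are the SD. Gm10925 was between 8.17 and 126 CPM in KO and between 0.00417 and 2.88 CPM in WT, while mt-Atp6 overlapped between the genotypes.

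The remaining 6 complex I genes did not follow mt-Nd3. All 6 had fold changes above 0 in KO-RA vs WT-RA, from 0.11 for mt-Nd4l to 0.39 for mt-Nd6 on the log2 scale, with a median of 0.27 beside -0.01 over all genes tested. None of the 6 was called by edgeR (smallest q = 0.167), and 1 of them, mt-Nd6, had an unadjusted p below 0.05. DESeq2 called 1, mt-Nd6 (log2 fold change 0.40, q = 0.0928), with 2 at an unadjusted p below 0.05, and edgeR called mt-Nd6 without WT-RA replicate 1 (0.53, q = 0.0585).

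Among the pumping subunits, mt-Nd4 was at 9091 to 12680 CPM in WT-RA and 11600 to 13590 CPM in KO-RA (log2 fold change 0.23, SE 0.15, edgeR q = 0.405). mt-Nd2 was at 3990 to 5652 CPM and 5515 to 6363 CPM (0.31, SE 0.185, edgeR q = 0.357), and mt-Nd5 at 5289 to 7078 CPM and 7189 to 7830 CPM (0.30, SE 0.151, edgeR q = 0.248). The KO-RA libraries of mt-Nd5 were all above the WT-RA libraries, whereas those of mt-Nd2 and mt-Nd4 overlapped them. mt-Nd1, at the ubiquinone site, was at 7159 to 8827 CPM in WT-RA and 9123 to 10180 CPM in KO-RA (0.23, SE 0.128, edgeR q = 0.295). Of the small subunits, mt-Nd6 was at 2020 to 2905 CPM and 2951 to 3210 CPM without overlap, and mt-Nd4l was at 695 to 920.2 CPM and 749 to 928 CPM. Among the 8 genes other than Gm10925, 5 did not overlap between KO-RA and WT-RA (mt-Nd1, mt-Nd3, mt-Nd5, mt-Nd6 and Gm28438), beside 19.6% of all genes tested.

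**Figure D4:**
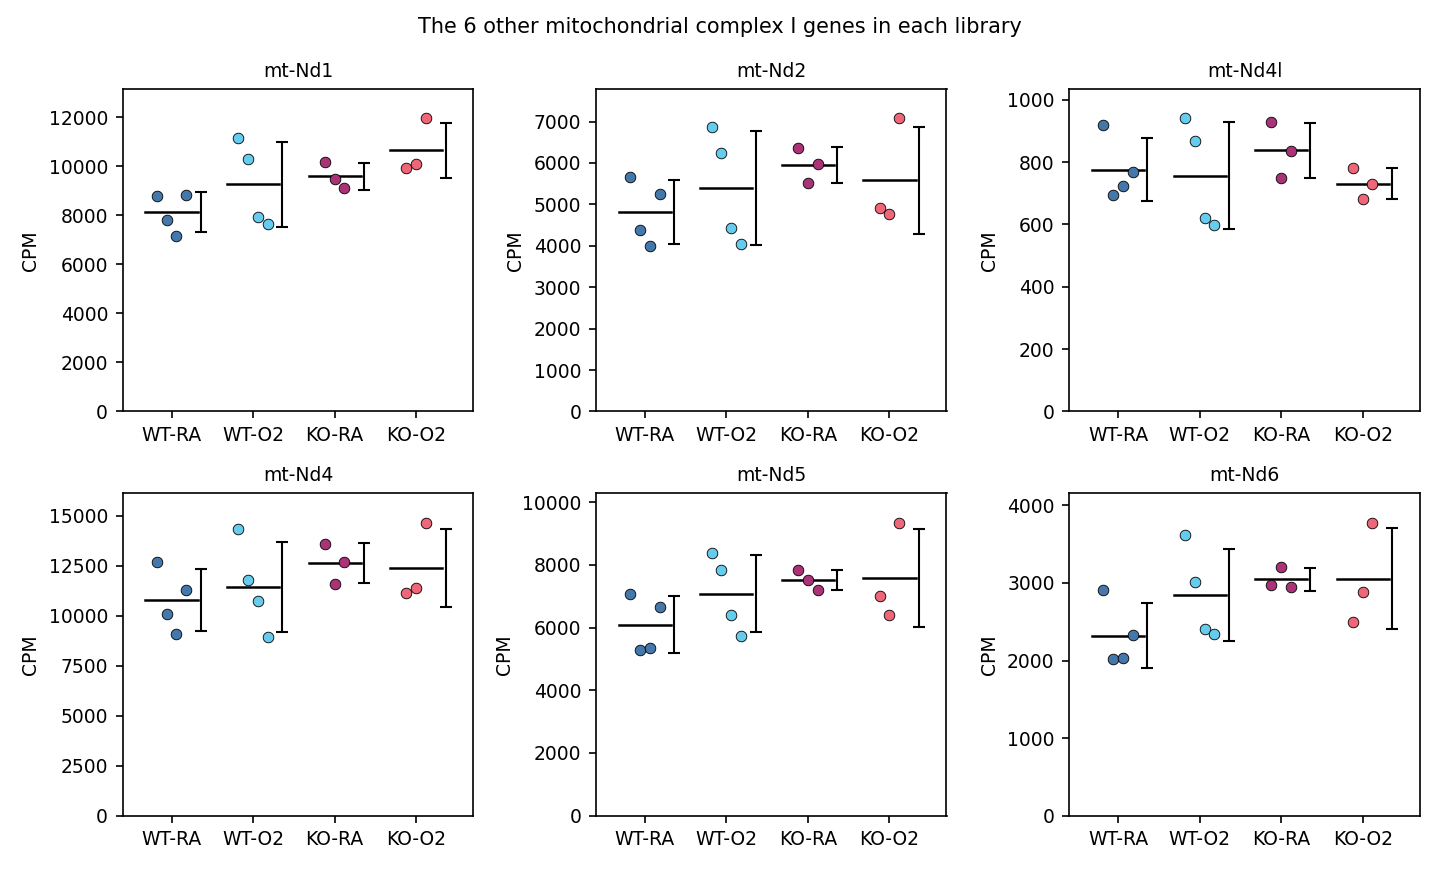
Levels of the 6 other mitochondrially encoded complex I genes in each library, in CPM by group. Points are libraries, horizontal bars means and vertical bars the SD. All 6 genes varied less than 2-fold over the 14 libraries, and KO-O2 replicate 3 was the highest library for 5 of them.

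The highest and lowest values of these genes fell in few libraries. KO-O2 replicate 3 was the highest of the 14 libraries for 5 of the 6 genes (all but mt-Nd4l), and the lowest library was WT-RA replicate 2, WT-RA replicate 3 or WT-O2 replicate 4 for 2 genes each. The ratio of the highest to the lowest library was 1.57 for mt-Nd4l and 1.87 for mt-Nd6, and it was 10.4 for mt-Nd3. Summed over the 6 genes, KO-RA was 0.27 above WT-RA in log2 CPM, without overlap (exact permutation p = 0.0571, the smallest possible, and 0.4 after adjustment over 21 comparisons of sums). The 13 mitochondrial genes and 7 copies together took 8.52% to 13% of all counts of a library.

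Per kilobase of transcript, mt-Nd3 stood with mt-Nd4l at the low end of the complex I genes in WT mice. In WT-RA, the means were 8520 ± 848 (SD, n = 4) CPM per kb for mt-Nd1 and 7830 ± 1120 for mt-Nd4, whose ranges overlapped. mt-Nd2 (4640 ± 739) and mt-Nd6 (4470 ± 801) followed, below both of these and overlapping each other. mt-Nd5 (3340 ± 497) lay just below mt-Nd6, at 2900 to 3880 against 3890 to 5600 CPM per kb. It overlapped mt-Nd2, which was at 3840 to 5450 CPM per kb. mt-Nd4l (2610 ± 338) also overlapped mt-Nd5, and mt-Nd3 (2230 ± 463) overlapped mt-Nd4l. In KO-RA, mt-Nd3 was at 389 ± 91.6 (SD, n = 3) CPM per kb and mt-Nd4l at 2820 ± 301, with no overlap, whereas the sum of mt-Nd3 and Gm28438 was at 2740 ± 389 CPM per kb of mt-Nd3. mt-Nd3 alone made up 1.98% to 2.56% of the counts of the 7 complex I genes in WT-RA and 0.263% to 0.419% in KO-RA. With Gm28438 added to both sides, the share was 2.43% to 2.90% in WT-RA and 2.07% to 2.50% in KO-RA.

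For hyperoxia against room air, the tests are given for the 6 complex I genes other than mt-Nd3. The WT-O2 and KO-O2 values of mt-Nd3, Gm10925 and Gm28438 took part in choosing them, so their values are a description. In WT mice 0 of the 6 genes were called by edgeR, beside 0.643% of all genes, and 0 had an unadjusted p below 0.05. DESeq2 also called 0, with 0 below 0.05. Of 5 red blood cell markers, 0 were called but 4 had an unadjusted p below 0.05 by edgeR and 5 by DESeq2, with summed levels of 279 to 343 CPM in WT-RA and 180 to 247 CPM in WT-O2. The oligodendrocyte markers had a median log2 fold change of -0.655, with 0 of 6 above 0. By edgeR 0 of them were called and 1 had an unadjusted p below 0.05, against 0 and 0 by DESeq2. Their summed levels were 7680 to 19200 CPM in WT-RA and 4810 to 12800 CPM in WT-O2. All 5 astrocyte markers had fold changes above 0 (1190 to 1410 CPM and 1410 to 1530 CPM). Both tools called 0 of the 5 and had 2 at an unadjusted p below 0.05. The part of any of these markers in the values of WT-O2 vs WT-RA was not tested. The WT-O2 mean of mt-Nd3 was 885 CPM (SD 137, n = 4), and its log2 fold change over WT-RA was 0.19 (SE 0.165), from 0.07 without WT-RA replicate 3 to 0.28 without WT-RA replicate 4. Gm28438 had a log2 fold change of -1.38 (SE 0.713). Without WT-O2 replicate 1, which was high for Gm28438, it was -3.0, and over all alternatives run it ranged from -3.0 to -0.668. Gm10925 had a log2 fold change of -2.48 with an SE of 1.77, and of -1.19 without WT-RA replicate 1.

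The other 6 complex I genes had log2 fold changes from -0.04 (mt-Nd4l) to 0.29 (mt-Nd6) in WT-O2 vs WT-RA, with a median of 0.17. The sum of mt-Nd3 and Gm28438 had 0.04 (95% interval -0.25 to 0.34). None of the 6 genes separated the WT groups without overlap, beside 5.99% of all genes.

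In KO mice 0 of the 6 genes were called by edgeR in KO-O2 vs KO-RA, beside 0.012% of all genes, and both edgeR and DESeq2 had 0 at an unadjusted p below 0.05 and DESeq2 called 0. mt-Nd3 had a log2 fold change of 0.09 (95% interval -0.32 to 0.50), Gm28438 0.02 (-1.67 to 1.71) and Gm10925 -0.57 (-2.32 to 1.18), again as a description. The other 6 genes ran from -0.20 (mt-Nd4l) to 0.15 (mt-Nd1). None of these 6 separated the KO groups without overlap, beside 11.8% of all genes.

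The response to hyperoxia was also compared between genotypes. This interaction contains the difference of KO-O2 and WT-O2 that chose mt-Nd3, Gm28438 and Gm10925, and for these genes it is a description. Of the other 6 genes, 0 were called by edgeR in the interaction, beside 0% of all genes, and edgeR and DESeq2 each had 0 of the 6 at an unadjusted p below 0.05 and DESeq2 called 0. Over all genes, 673 had an unadjusted p below 0.05 by edgeR. The interaction was -0.10 for mt-Nd3 (95% interval -0.64 to 0.44) and 1.40 for Gm28438 (-0.87 to 3.67). That of Gm28438 was 3.02 without WT-O2 replicate 1 and 0.68 with WT-O2 replicate 4 taken as room air. For Gm10925 it was 1.92 (-2.37 to 6.20), with 4.25 without KO-RA replicate 1 and 0.62 without WT-RA replicate 1.

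Between KO-O2 and WT-O2, the contrast that chose 3 of the genes, the log2 fold change was -2.62 for mt-Nd3, 4.03 for Gm28438 and 7.48 for Gm10925. Without WT-O2 replicate 1, that of Gm28438 was 5.64. Of all genes 6.86% were called in this contrast, and since it chose these 3 of the 9 genes, nothing is read from their own calls. The other 6 complex I genes ranged from -0.05 (mt-Nd4l) to 0.20 (mt-Nd1). The pairs summed gave 0.06 for mt-Nd3 and Gm28438 and 0.20 for mt-Atp6 and Gm10925.

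**Figure D5:**
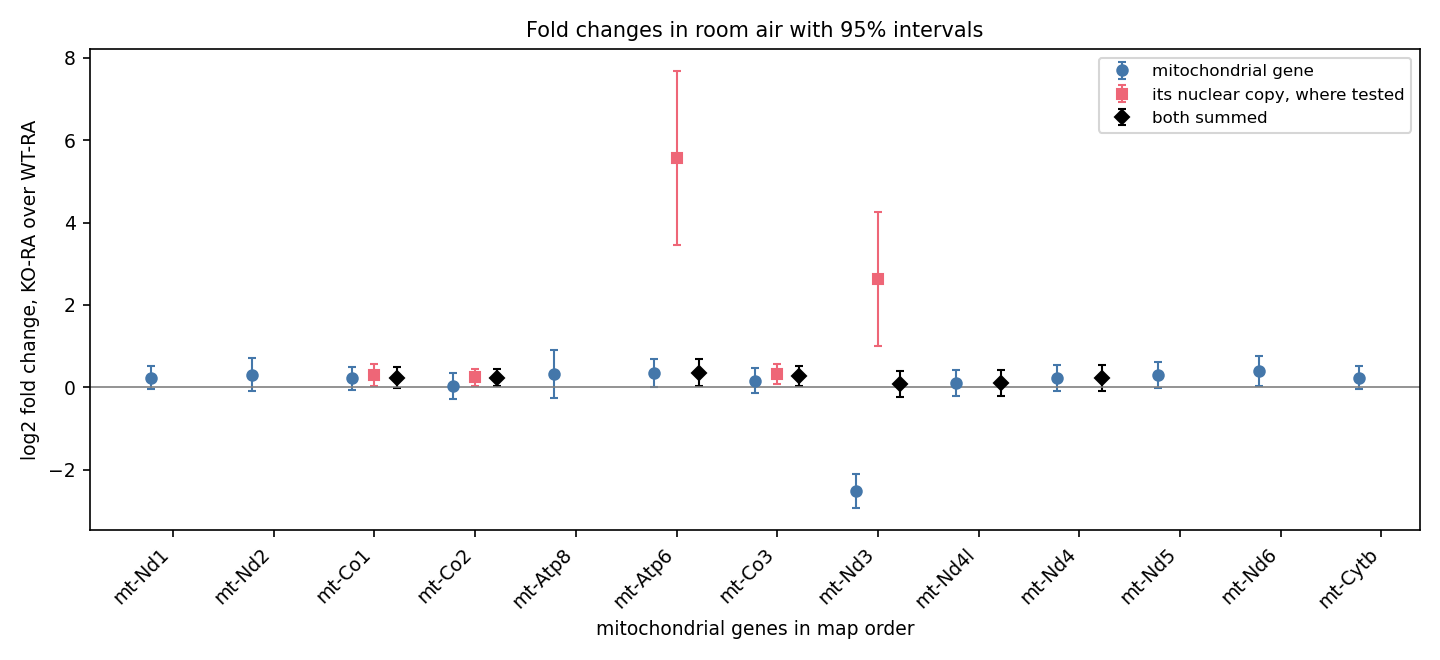
Log2 fold changes of KO-RA over WT-RA with 95% intervals from edgeR for the 13 mitochondrial protein genes in map order, their nuclear copies where tested, and each pair summed. mt-Nd3 (-2.52), Gm28438 (2.63) and Gm10925 (5.56) stood apart, and the summed rows lay between 0.07 and 0.36.

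The rest of the mitochondrial genome and the nuclear genes of complex I were compared for context. The 6 other mitochondrial protein genes encode cytochrome b and subunits of cytochrome c oxidase and ATP synthase. They had log2 fold changes from 0.03 (mt-Co2) to 0.35 (mt-Atp6) in KO-RA vs WT-RA. None was called by edgeR or DESeq2, and each tool had 1 at an unadjusted p below 0.05. Of the 3 other copies tested (Gm28437, Gm28661 and Gm29216), edgeR and DESeq2 called 1, Gm28437, higher at 0.33 (edgeR q = 0.0853). Of the 7 pairs summed, 0 were called by either tool, with 3 at an unadjusted p below 0.05 by edgeR and 4 by DESeq2. Over all 16637 genes tested, 10.4% were called by edgeR in this contrast and 3907 had an unadjusted p below 0.05.

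Of the nuclear subunits of complex I listed, 36 of 36 passed the filter. In KO-RA vs WT-RA, 26 had a fold change above 0, with a median of 0.03 on the log2 scale, and 0 were called by edgeR or DESeq2 (1 and 3 at an unadjusted p below 0.05). The largest was Ndufa12 at 0.25 (SE 0.0753, edgeR q = 0.0479), which passed on p and q but fell short of the fold change required. Of 15 assembly factors of complex I tested, 0 were called by either tool, with 0 at an unadjusted p below 0.05 and a median of 0.00. Of 24 genes that transcribe, process or degrade mitochondrial RNA, 0 were called by either tool, each with 2 at an unadjusted p below 0.05, and the median was 0.07. In WT-O2 vs WT-RA and KO-O2 vs KO-RA, none of these 3 lists had a called gene by edgeR or DESeq2. Of the 36 nuclear subunits, 10 had a fold change above 0 in WT and 4 in KO. Their median log2 fold changes were -0.04 and -0.10, beside -0.006 and -0.002 over all genes. Of the 15 assembly factors 7 were above 0 in WT and 5 in KO, and of the 24 genes of mitochondrial RNA 11 and 5. These directions were not tested for a list as a whole. The unadjusted p was below 0.05 by edgeR for 3 assembly factors in WT, and in KO for 1 nuclear subunit and 3 genes of mitochondrial RNA.

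The genes whose pattern over the 14 libraries was most like that of mt-Nd3 were found by the root mean square difference of standardized log2 CPM, among 14467 genes of at least 1 CPM. They were Trh (0.242), the precursor of thyrotropin-releasing hormone, Sv2c (0.251), a synaptic vesicle protein, Enpp5 (0.274), Gucy1a1 (0.276), a subunit of soluble guanylate cyclase, and Adora2a (0.282), an adenosine receptor and 1 of the striatal markers. Trh averaged 13.7 CPM in WT-RA and 0.338 CPM in KO-RA, and Adora2a 24.0 CPM and 3.46 CPM. Enpp5 averaged 202 CPM and 172 CPM, a log2 fold change of -0.231, and was not called. Because the values were standardized, the likeness covers the pattern over libraries and not the size of a change. For Gm10925 they were Ksr1 (0.282), a scaffold of MAP kinase signalling, Zfp189 (0.306), Hpca (0.309), the neuronal calcium sensor hippocalcin, Kcnab2 (0.311), a potassium channel subunit, and Arhgef25 (0.317). Hpca averaged 659 CPM in WT-RA and 980.0 CPM in KO-RA. This likeness is a description over libraries that also share the difference in neuronal markers given above.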

How the data were processed

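Polyadenylated RNA was sequenced by BGI Genomics as paired-end reads. Per the study's methods and processing notes, Kallisto assigned reads to GRCm39 transcripts and tximport summed them to genes; versions, word length and count scaling are not given in the sources used here. The deposited values are estimated counts, of which 41.0% to 43.2% per library were not whole. Kallisto divides reads that fit several transcripts in proportion to the estimated abundances, so near-identical genes share counts. A genome of the files' build was not used here.

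Counts were rounded, filtered by filterByExpr, scaled by TMM and fitted in all 14 libraries with edgeR 4.0.16 (R 4.3.3). The SE is the log2 fold change divided by the square root of F. CPM and log2 CPM (prior count 2) were computed here. On simulated counts for KO-RA vs WT-RA, the test recovered 67 of 100 genes with a 1.5-fold increase and 87 of 100 with a 2-fold increase. Of 16255 genes simulated without a change, it called 14. The simulation held no decreases and no division of reads between near-identical genes, so it does not cover mt-Nd3, Gm28438 or Gm10925. Each copy was aligned to the mitochondrial transcripts with Biopython 1.88, and copy and counterpart were summed in an added fit. Alternatives included DESeq2 1.42.0, other scalings, filters and thresholds, and leaving out each library. Members and lists were chosen with earlier results of these data known. Named genes are all 9 members, the other mitochondrial protein genes and copies, called genes of the pathway lists, and the 5 genes most like mt-Nd3 and like Gm10925. Gsdmd and Aldh1l1, an astrocyte marker that was not called, are also named. Ndufa12 was named after its value was seen. Of 36118 gene IDs, 35825 matched a symbol.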

Additional observations from a re-analysis of the deposited data

Results flagged for a closer look

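Gm28438 in WT-O2 replicate 1 was at 153.9 CPM, while the other 3 WT-O2 libraries were at 26.7, 20.9 and 2.17 CPM. It stood out in CPM, on a linear scale, by the gap to its nearest neighbour relative to the range of the 4 libraries. These WT-O2 values took part in the contrast that chose Gm28438, so the gap is a description and not a test. The 9 genes were examined in both WT groups of 4. For normally distributed values, chance alone gives such a gap in about 1 of 20 groups, and divided counts need not be distributed so. The sum of mt-Nd3 and Gm28438 was also highest in this library, at 1197 CPM. No cause was tested.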

How the results depend on the processing

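Over the alternatives run, 898 values were counted as unchanged, 27 changed sign, 5 came past the threshold, 1 fell short of it and 2 others moved. For most single genes and summed pairs, unchanged meant the same sign and the same side of the threshold. For the number of members called, it meant a count within a set ratio of the main one. For medians of the other complex I genes, and for single genes in KO-O2 vs WT-O2, it meant a shift below the SD within groups. In KO-RA vs WT-RA, mt-Nd3 was called under all 24 alternatives, and Gm28438 under all of them but that without KO-RA replicate 1. With each library left out, the number called in WT-O2 vs WT-RA ran from 0 to 1 (Gm28438, without WT-O2 replicate 1), on values that took part in choosing that gene. With each library left out, the summed log2 fold change of mt-Nd3 and Gm28438 ran from -0.014 to 0.18 in KO-RA vs WT-RA, from -0.097 to 0.14 in WT-O2 vs WT-RA, from -0.083 to 0.11 in KO-O2 vs KO-RA and from -0.13 to 0.125 in the interaction. That of mt-Atp6 and Gm10925 ran from 0.29 to 0.46, from -0.0055 to 0.24 and from -0.12 to 0.046 in the first 3 of these, and was 0.40 and called (q = 0.0699) in KO-RA vs WT-RA with WT-O2 replicate 4 as room air. In KO-O2 vs KO-RA, Gm10925 ran from -1.07 to 1.77 (1.77 without KO-RA replicate 1), Gm28438 from -0.083 to 0.11 and mt-Nd3 from -0.085 to 0.25; the interaction of mt-Nd3 ran from -0.28 to 0.054. Over all alternatives the interaction ran from 0.68 to 3.02 for Gm28438 and from 0.62 to 4.25 for Gm10925, and Gm10925 in WT-O2 vs WT-RA ran from -2.91 to -1.19. The log2 sum of all mitochondrial genes and copies in KO-O2 vs KO-RA ran from -0.086 to 0.055 and was -0.0046 with library size in place of TMM. The cause of these shifts was not tested. No paired analysis was possible because the labels give no replicate numbers shared between groups. The division of near-identical reads between copy and counterpart bears on every value of Gm28438, mt-Nd3 and Gm10925; with 3 or 4 mice per group, intervals for the copies stayed wide.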
